A study of Mus musculus with 20 samples.

Results

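Glucose enters mammalian cells through the GLUT transporters, the products of the SLC2 genes, and 10 genes of this system were described across brown adipose tissue libraries out of 55471 gene IDs in the tables. They were listed by name: the hexose transporters Slc2a1, Slc2a3, Slc2a4, Slc2a5, Slc2a8, Slc2a10 and Slc2a12, Trarg1 and Tbc1d4, which act on the traffic of GLUT4 vesicles, and Txnip, a restraint on glucose uptake. All 10 were found by symbol and all 10 passed the expression filter, which left 15233 genes.

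GLUT4, the product of Slc2a4, is the insulin-responsive transporter of fat and muscle. It is held in intracellular vesicles at rest and moves to the cell surface when insulin or contraction signals relieve the brake set by TBC1D4, a RAB GTPase-activating protein also called AS160. GLUT1, the product of Slc2a1, sits at the surface of most cells and carries basal uptake, and TXNIP, an arrestin-family protein, drives GLUT1 and GLUT4 away from the surface. Brown fat takes up much glucose when sympathetic nerves activate heat production in the cold.

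The mice lacked CEBPB, the transcription factor known as C/EBP beta, in adipose tissue (KO), or were wild type (WT) for it. They were exposed to cold stress for 4 h or kept at room temperature (RT). Each of the 4 groups, KO in the cold, KO at RT, WT in the cold and WT at RT, held 5 libraries of poly(A) RNA from brown adipose tissue. The promoter that drives the deletion, the age and the sex of the mice are not given in the sources used here, and the labels do not say that libraries come from separate animals, so p-values measure the spread between libraries, which may be technical.

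Libraries held 27.07 to 55.18 M counts on the strand of the kit. Cebpb, the targeted gene, was at 1.92 ± 0.277 CPM (counts scaled to library size, TMM) in KO cold libraries and 0.564 ± 0.253 CPM in KO RT libraries, against 143 ± 22.4 CPM in WT cold libraries and 105 ± 19.9 CPM in WT RT libraries (SD, n = 5 each). The 10 brown adipocyte markers, Ucp1 and Adipoq among them, summed to 24300 to 27000 CPM in KO cold, 15300 to 18700 CPM in KO RT, 25100 to 29400 CPM in WT cold and 15600 to 20900 CPM in WT RT libraries, and none was at 0. Markers of skeletal muscle, a tissue next to the depot, moved with temperature: the 18 markers summed to 49.9 to 60.1 CPM in KO cold, with 2 markers at 0 counts in the whole group, 84.4 to 723 CPM in KO RT, 51.8 to 91.4 CPM in WT cold and 57.6 to 1630 CPM in WT RT libraries, and 17 of the 18 were called lower in the cold in each genotype. Of all tested genes, 31.7% were called lower with cold in KO and 30.2% in WT. WT RT replicate 4 and WT cold replicate 5 were the WT libraries nearest to the other temperature in Trarg1 and Slc2a8, and WT values were also computed without both.

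On GRCm38, GENCODE M21 places Slc2a1 (ENSMUSG00000028645.11) at chr4:119108711-119137983, Slc2a5 (ENSMUSG00000028976.10) at chr4:150119283-150144169, Slc2a10 (ENSMUSG00000027661.4) at chr2:165503787-165519917 and Slc2a12 (ENSMUSG00000037490.5) at chr10:22645011-22704285, all on the plus strand, and Slc2a3 (ENSMUSG00000003153.10) at chr6:122727809-122801640, Slc2a4 (ENSMUSG00000018566.14) at chr11:69942539-69948188 and Slc2a8 (ENSMUSG00000026791.14) at chr2:32972990-32982083 on the minus strand. It places Trarg1 (ENSMUSG00000046275.2) at chr11:76679808-76698664 and Txnip (ENSMUSG00000038393.14) at chr3:96557957-96561883 on the plus strand and Tbc1d4 (ENSMUSG00000033083.16) at chr14:101442360-101609191 on the minus strand. All 10 are protein-coding, and the values sum reads over their exons. Genes on the opposite strand overlap Slc2a1 (Gm12867 and Gm12868), Slc2a12 (Tbpl1) and Txnip (Gm15441), which the stranded counts keep apart. Mir1957a overlaps Slc2a1 on the same strand, where stranded counts do not separate genes.

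Ranked by level per length, Txnip and Slc2a4 were the most abundant of the 10 transcripts in every group. In CPM per kb of exon, Txnip averaged 244 ± 31 in KO cold, 232 ± 52.9 in KO RT, 207 ± 25.2 in WT cold and 215 ± 46.5 in WT RT libraries (SD, n = 5 each, as for all levels below). Slc2a4 came next with 98.3 ± 20.4 in KO cold, 90.8 ± 10.7 in KO RT, 87.8 ± 17.3 in WT cold and 75.3 ± 11.5 CPM per kb in WT RT libraries. Trarg1 stood close behind Slc2a4 at RT, with 63.4 ± 8.18 CPM per kb in KO and 58 ± 12.9 CPM per kb in WT libraries, and its WT RT range overlapped that of Slc2a4. In the cold Trarg1 was at 6.69 ± 2.25 CPM per kb in KO and 7.97 ± 2.73 CPM per kb in WT libraries, where its range overlapped that of Tbc1d4 in both genotypes.

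The order below these genes also depended on temperature. At RT in WT, Slc2a8 at 2.96 ± 0.213 CPM per kb lay above Slc2a1 at 1.69 ± 0.073 CPM per kb with no overlap between their ranges. In the cold Slc2a1 lay above Slc2a8 without overlap, at 4.48 ± 0.625 against 2.12 ± 0.356 CPM per kb in KO and at 3.95 ± 0.658 against 2.33 ± 0.236 CPM per kb in WT libraries. Slc2a12, Slc2a5, Slc2a3 and Slc2a10 formed the low end in WT RT libraries, where each overlapped its neighbour in the order, from 1.22 ± 0.178 CPM per kb for Slc2a12 to 0.292 ± 0.066 CPM per kb for Slc2a10.

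Slc2a4 held almost the whole SLC2 transcript pool. Its share of the summed CPM per kb of the SLC2 genes was 91.5 ± 1.46% in KO cold, 89.9 ± 1.08% in KO RT, 90.9 ± 1.66% in WT cold and 90.5 ± 1.34% in WT RT libraries. Slc2a1 held 4.24 ± 0.507% in KO cold and 1.58 ± 0.109% in KO RT, and 4.25 ± 1.21% in WT cold and 2.07 ± 0.298% in WT RT libraries. The ratio of Slc2a1 to Slc2a4, both per kb, was 0.0464 ± 0.00622 in KO cold and 0.0176 ± 0.00109 in KO RT, and 0.047 ± 0.0139 in WT cold and 0.0229 ± 0.00361 in WT RT libraries.

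**Figure D1:**
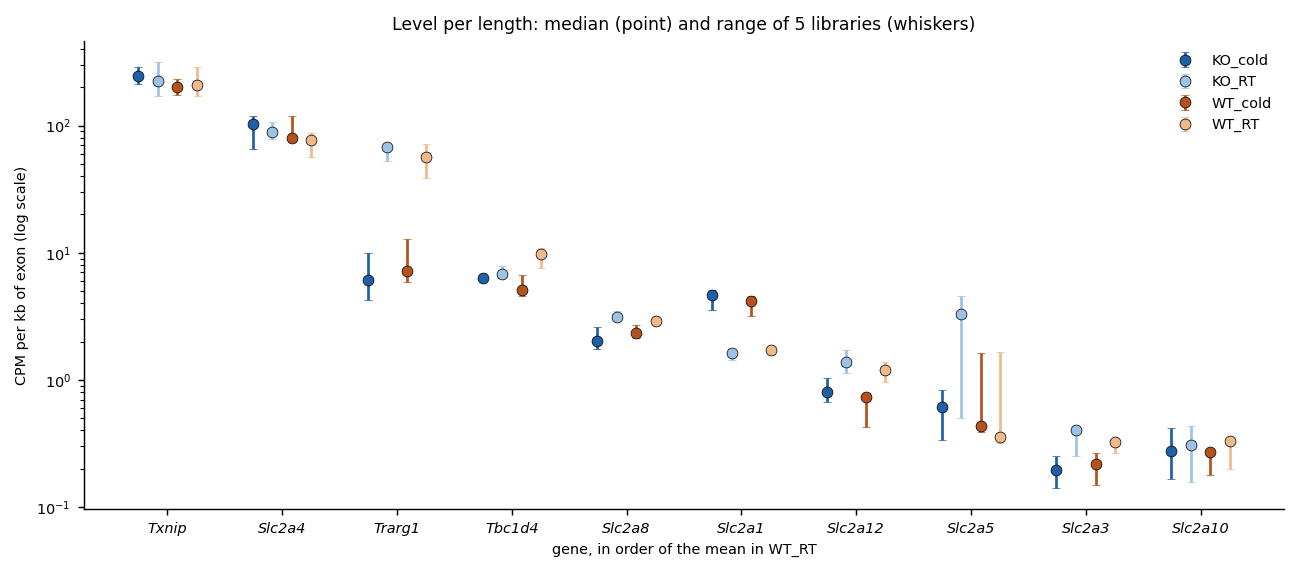
Level of each of the 10 genes in CPM per kb of exon on a log axis, where points are the medians and whiskers the ranges of the 5 libraries of a group, with genes in the order of their WT RT means. Txnip and Slc2a4 lie at the top in every group, and Trarg1 lies just below Slc2a4 at RT and near Tbc1d4 in the cold.

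Cold for 4 h left Slc2a4 without a call, raised Slc2a1 and lowered Trarg1 in both genotypes. Of the 10 genes, edgeR called 1 higher and 5 lower in cold KO libraries, where 59.2% of all tested genes were called, 27.5% higher and 31.7% lower. In WT it called 1 higher and 5 lower in the cold, where 56.4% of all tested genes were called, 26.2% higher and 30.2% lower. The count of called members is near these shares and is not a result about the genes as a group. The median log2 fold change of the 10 genes was -0.4 in KO and -0.27 in WT, beside -0.05 over all tested genes in each genotype. Called in both genotypes were Slc2a1, Slc2a3, Slc2a8, Slc2a12 and Trarg1, while Slc2a5 was called in KO and Tbc1d4 in WT. These calls were the same with the mean log2 level of the muscle markers as a covariate, apart from Slc2a5 in KO. That mean was -2.32 to -2.07 in KO cold and 0.69 to 4.73 in KO RT libraries, without overlap. In WT it was -2.32 to 0.89 in cold and -2.17 to 5.85 in RT libraries. This fit therefore cannot cleanly separate muscle from cold in KO. Without WT RT replicate 4 and WT cold replicate 5, the same 6 genes were called in WT, at 1.31 for Slc2a1, -0.64 for Slc2a3, -0.41 for Slc2a8, -0.9 for Slc2a12, -3.19 for Trarg1 and -0.81 for Tbc1d4.

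**Figure D2:**
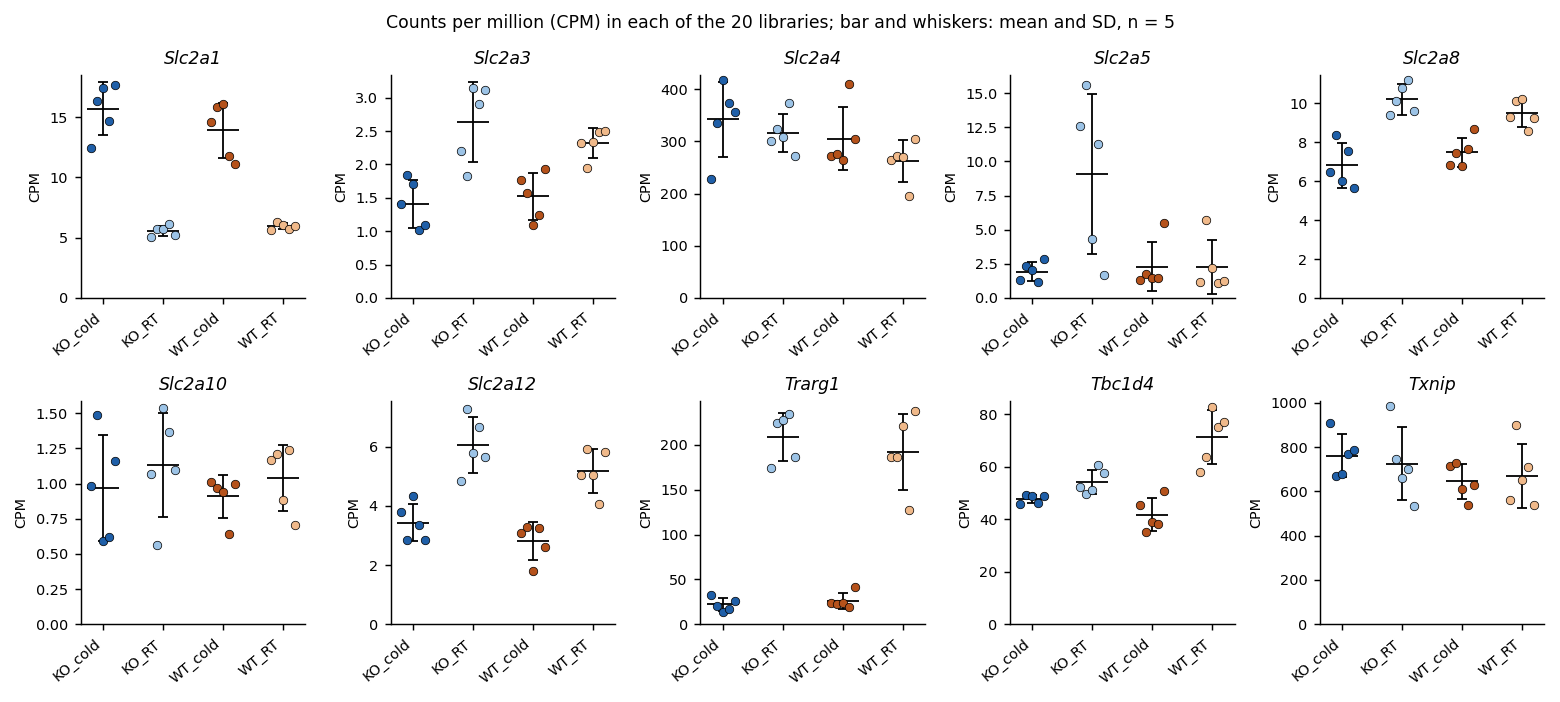
Level of each gene in CPM on a linear axis from 0, with 1 panel per gene, 1 point per library and the mean and SD of the 5 libraries of each group as bar and whiskers. All cold libraries lie above all RT libraries for Slc2a1 and below them for Trarg1, and the groups overlap for Slc2a4 and Txnip.

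Among the 7 transporters of the 10 genes, Slc2a1 was the one called higher with cold. Its 5 KO cold libraries held 12.4, 16.3, 17.4, 14.7 and 17.7 CPM, against 5.06, 5.75, 5.7, 6.13 and 5.2 CPM in the KO RT libraries. The WT cold libraries held 14.6, 15.8, 16.1, 11.8 and 11.1 CPM, against 5.64, 6.26, 6.08, 5.73 and 5.99 CPM in the WT RT libraries. Every cold library lay above every RT library, and the RT libraries spread little. The log2 fold change was 1.5 ± 0.111 in KO (SE, adjusted p = 4.87e-10, edgeR) and 1.22 ± 0.109 in WT (adjusted p = 6.43e-09), which are 2.82-fold and 2.33-fold. In bulk tissue, a change in RNA per cell and a change in the share of cells that carry it cannot be told apart.

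The genotype made no called difference to Slc2a1: the log2 fold change of KO over WT was 0.18 in the cold (95% interval -0.05 to 0.4, adjusted p = 0.377, edgeR) and -0.09 at RT (-0.33 to 0.14, adjusted p = 0.8). The difference of the cold responses was 0.27 (adjusted p = 0.586). GLUT1 is also abundant in vessel walls, and in red cells of humans. The 10 endothelial markers summed to 1110 to 1270 CPM in KO cold and 771 to 1010 CPM in KO RT libraries, and to 1010 to 1230 CPM in WT cold and 896 to 1160 CPM in WT RT libraries. Of these 10 markers, 6 were called higher and 3 lower in the cold in KO, and 4 higher and 3 lower in WT. Of all tested genes, 27.5% were called higher and 31.7% lower in KO, and 26.2% and 30.2% in WT. The 7 erythrocyte markers summed to 274 to 401 CPM in KO cold, 214 to 411 CPM in KO RT, 270 to 1170 CPM in WT cold and 266 to 476 CPM in WT RT libraries, with 0 of 7 called by edgeR in either genotype, 1 in WT at an unadjusted p under 0.05 and 1 in WT by DESeq2. The part of vessel and blood cells in the rise of Slc2a1 was not tested.

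Promoter windows were read for the genes that RefSeq's table for GRCm38.p6 lists, 7 of the 10, each from 250 bases before to 50 bases after the annotated start. Both strands were searched for the E-box CACGTG, the C/EBP palindrome TTGCGCAA and its looser form TTNNGNAA, which contains the palindrome, the cAMP response element TGACGTCA and its core TGACG, and the MEF2 motif. The Slc2a1 window, on the plus strand at chr4:119108495-119108794, is shown because this gene rose with cold, and it is all in lower case because none of the searched letters occur in it.
Slc2a1: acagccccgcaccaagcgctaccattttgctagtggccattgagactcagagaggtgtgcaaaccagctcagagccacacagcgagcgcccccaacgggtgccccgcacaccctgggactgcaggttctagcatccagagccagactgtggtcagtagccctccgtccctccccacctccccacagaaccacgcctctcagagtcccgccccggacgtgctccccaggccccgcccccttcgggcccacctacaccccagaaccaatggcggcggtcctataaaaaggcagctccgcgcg

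Across all 32851 windows of the table, 7.15% held the E-box, 0.183% the C/EBP palindrome and 40.7% its looser form. The cAMP response element was in 1.79%, its core in 20.8% and the loose MEF2 form in 3.69%. No window of the 7 genes held the E-box, the palindrome, the cAMP response element or its core. The loose MEF2 form occurred as CTATTTGTAG in the Slc2a10 window and as CTAGCCCTAG in the Slc2a12 window. Each has a G or C in the middle, where the MEF2 motif has A or T. The looser C/EBP form occurred in the windows of Slc2a5, Slc2a12 and Tbc1d4. A match is a description of these letters and not of binding, and the absence of a match says only that the letters are not in the window.

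Slc2a4 stayed high without a called change. The KO cold libraries held 227, 336, 417, 374 and 356 CPM, against 300, 324, 309, 373 and 272 CPM in KO RT libraries. The WT cold libraries held 272, 275, 265, 410 and 304 CPM, against 265, 272, 270, 196 and 305 CPM in WT RT libraries. The groups overlapped in both genotypes. The log2 fold change with cold was 0.12 ± 0.15 in KO (95% interval -0.2 to 0.43, adjusted p = 0.527, edgeR) and 0.22 ± 0.15 in WT (-0.1 to 0.54, adjusted p = 0.219). For KO over WT it was 0.16 in the cold (-0.15 to 0.48, adjusted p = 0.618) and 0.27 at RT (-0.05 to 0.59, adjusted p = 0.456). Slc2a4 is also a muscle transcript, and its correlation with the muscle marker mean over the 20 libraries was -0.1, and 0.23 once group means were removed. With the muscle markers as a covariate its cold change was 0.26 in KO (adjusted p = 0.378, edgeR) and 0.32 in WT (adjusted p = 0.178), and the part of muscle in its values was not tested otherwise.

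Slc2a3 encodes GLUT3, the high-affinity transporter of neurons and blood cells. It held 1.02 to 1.84 CPM in KO cold and 1.82 to 3.14 CPM in KO RT libraries, and 1.09 to 1.93 CPM in WT cold and 1.94 to 2.5 CPM in WT RT libraries. The WT groups lay next to each other without overlap, and the KO groups overlapped by a narrow margin. The log2 fold change with cold was -0.9 ± 0.196 in KO (adjusted p = 0.000425, edgeR) and -0.59 ± 0.19 in WT (adjusted p = 0.011). At 33 to 105 counts per library, and with an overlapping gene model on the same strand, Gm4482, its counts are among the least certain of the 10. The 9 neutrophil and platelet markers summed to 5.44 to 9.55 CPM in KO cold, 5.25 to 5.71 CPM in KO RT, 5.19 to 11.4 CPM in WT cold and 5.4 to 8.11 CPM in WT RT libraries, with 1 of 6 tested markers called higher by edgeR and DESeq2 in KO, and 0 of 6 in WT by either tool or at an unadjusted p under 0.05. The 10 lymphocyte markers summed to 5.69 to 9.43 CPM in KO cold, 7.1 to 17 CPM in KO RT, 5.86 to 8.99 CPM in WT cold and 7.3 to 10.9 CPM in WT RT libraries. Of 9 tested lymphocyte markers, 3 were called lower with cold in KO and 4 in WT. Of all tested genes, 27.5% were called higher and 31.7% lower in KO, and 26.2% and 30.2% in WT. The part of blood cells in the Slc2a3 values was not tested.

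Slc2a5 encodes GLUT5, a fructose transporter, and was the most variable of the 10. KO cold libraries held 1.28, 2.31, 2.08, 1.14 and 2.82 CPM, against 12.6, 15.6, 4.33, 11.3 and 1.69 CPM in KO RT libraries. WT cold libraries held 1.31, 1.78, 1.44, 1.47 and 5.51 CPM, against 1.2, 5.68, 2.17, 1.08 and 1.21 CPM in WT RT libraries. Of the KO RT libraries 3 lay above every library of the other groups, while KO RT replicates 3 and 5 lay among them. Cold lowered Slc2a5 in KO, with a log2 fold change of -2.25 ± 0.619 (adjusted p = 0.00474, edgeR), although the groups overlapped. With the muscle markers as a covariate this became -1.79 and was no longer called (adjusted p = 0.14).

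In WT the cold change of Slc2a5 was 0.02 ± 0.61 (95% interval -1.27 to 1.31, adjusted p = 0.98, edgeR). The difference between the genotypes' cold responses was -2.27 ± 0.864 and was not called (adjusted p = 0.35), so the responses of KO and WT are not shown to differ. At RT the log2 fold change of KO over WT was 2 ± 0.6 (95% interval 0.73 to 3.27, adjusted p = 0.0971, edgeR), short of the threshold of 0.05. The Wald test of DESeq2 called it (adjusted p = 0.0221), as did edgeR without KO RT replicate 5 (adjusted p = 0.037) and without WT RT replicate 2 (adjusted p = 0.0252). Microglia, the macrophages of the brain, also express GLUT5. The 10 macrophage markers summed to 137 to 175 CPM in KO cold, 119 to 178 CPM in KO RT, 119 to 174 CPM in WT cold and 104 to 138 CPM in WT RT libraries. Of these 10, 3 were called higher with cold in KO and 2 in WT, and none lower. Of all tested genes, 27.5% were called higher and 31.7% lower in KO, and 26.2% and 30.2% in WT. Between genotypes 0 of the 10 were called by edgeR or DESeq2 at either temperature, with 1 higher under an unadjusted p of 0.05 at each. Among all tested genes, edgeR called 2.7% between genotypes at RT and 7.7% in the cold.

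Slc2a8 encodes GLUT8, a transporter of internal membranes. It held 5.63 to 8.39 CPM in KO cold and 9.38 to 11.2 CPM in KO RT libraries, and 6.79 to 8.66 CPM in WT cold and 8.56 to 10.2 CPM in WT RT libraries. The KO groups did not overlap, and the WT groups overlapped at WT cold replicate 5 and WT RT replicate 4, the libraries named above. With cold the log2 fold change was -0.59 ± 0.102 in KO (adjusted p = 3.57e-05, edgeR) and -0.34 ± 0.1 in WT (adjusted p = 0.00568). The difference between them was -0.25 and was not called (adjusted p = 0.6).

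Slc2a12 encodes GLUT12, which like GLUT4 can be insulin-responsive in muscle and fat. It held 2.85 to 4.35 CPM in KO cold and 4.84 to 7.28 CPM in KO RT libraries, and 1.79 to 3.3 CPM in WT cold and 4.05 to 5.91 CPM in WT RT libraries. Neither pair of groups overlapped, which also held for 44.9% of all tested genes with cold in KO and 38.2% in WT. With cold, log2 fold changes were -0.81 ± 0.162 in KO (adjusted p = 0.000182, edgeR) and -0.88 ± 0.161 in WT (adjusted p = 8.19e-05). Slc2a10, which encodes GLUT10, was near 1 CPM in all groups, 0.595 to 1.49 in KO cold, 0.562 to 1.54 in KO RT, 0.643 to 1.01 in WT cold and 0.707 to 1.24 in WT RT libraries. Its cold change was -0.21 ± 0.267 in KO (95% interval -0.78 to 0.35) and -0.19 ± 0.261 in WT (-0.74 to 0.36), neither called.

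Trarg1, also known as TUSC5, is an adipocyte protein of GLUT4 vesicles that supports insulin-stimulated glucose uptake. It fell further than any other of the 10 genes. KO cold libraries held 32.6, 20, 14, 17.5 and 26.4 CPM, against 174, 224, 228, 234 and 187 CPM in KO RT libraries. WT cold libraries held 24.2, 22.1, 23.5, 19.6 and 42.1 CPM, against 187, 186, 221, 127 and 238 CPM in WT RT libraries. All 10 cold libraries lay far below all 10 RT libraries, with WT cold replicate 5 and WT RT replicate 4 the nearest to each other.

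The log2 fold change of Trarg1 with cold was -3.24 ± 0.251 in KO (adjusted p = 7.69e-09, edgeR) and -2.86 ± 0.246 in WT (adjusted p = 2.91e-08), a 9.46-fold lower level in KO and a 7.28-fold lower level in WT. It was -3.08 in KO and -2.75 in WT with the muscle markers as a covariate, and -3.19 in WT without WT RT replicate 4 and WT cold replicate 5. The difference between genotypes in the response was -0.38 (adjusted p = 0.774), and KO over WT was -0.25 in the cold (adjusted p = 0.633) and 0.13 at RT (adjusted p = 0.881). Over the 20 libraries Trarg1 and Slc2a1 correlated at r = -0.97, and at -0.29 once group means were removed, a description of libraries that share temperature groups.

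Tbc1d4 was the only member with a called difference between the genotypes in its cold response, and that call was close to its threshold. KO cold libraries held 45.8, 49.2, 48.8, 46.1 and 48.8 CPM, against 52.3, 49.8, 51, 60.6 and 57.6 CPM in KO RT libraries. WT cold libraries held 45.6, 35.2, 38.9, 38.2 and 50.9 CPM, against 58, 63.7, 82.8, 75.2 and 77.3 CPM in WT RT libraries. The WT groups lay well apart, the KO groups lay just apart, and the KO RT libraries lay below 4 of the 5 WT RT libraries. Cold lowered it in WT by a log2 fold change of -0.77 ± 0.097 (adjusted p = 6.71e-07, edgeR). In KO the change was -0.18 ± 0.097 (95% interval -0.39 to 0.02, adjusted p = 0.108), which was called when only the KO libraries entered the fit (adjusted p = 0.0217).

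The difference between the cold responses of Tbc1d4, KO minus WT, was 0.59 ± 0.136 (95% interval 0.3 to 0.88, adjusted p = 0.0412, edgeR). This made 1 of the 10 genes called higher in this comparison and 0 lower, where 0.742% of all tested genes were called, 0.427% higher and 0.315% lower. The call is close to its threshold: it held without KO RT replicate 4, WT cold replicate 1, WT cold replicate 5, WT RT replicate 1 or WT RT replicate 2, and was lost without any 1 of the other 15 libraries, at adjusted p-values from 0.0541 to 0.0931, while the value stayed between 0.53 and 0.67. It was also lost with the muscle markers as a covariate (0.53, adjusted p = 0.111). Without WT RT replicate 4 and WT cold replicate 5 together, it was 0.65 (adjusted p = 0.0243).

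At RT, Tbc1d4 was the 1 gene of the 10 called lower in KO than in WT, and 0 were called higher, where 2.7% of all tested genes were called, 1.38% higher and 1.32% lower. Its log2 fold change was -0.4 ± 0.096 (adjusted p = 0.0264, edgeR), and the groups overlapped, while 4.98% of all tested genes had no overlap here. The call was lost without KO RT replicate 1, 2 or 3 or WT RT replicate 3, 4 or 5, at adjusted p-values from 0.0637 to 0.0801. In the cold the value of KO over WT was 0.19 ± 0.097 (95% interval -0.01 to 0.4, adjusted p = 0.277). Of the 10 genes 0 were called by edgeR between genotypes in the cold, while edgeR called 7.7% of all tested genes, 3.51% higher and 4.19% lower. Of the 10, 0 were under an unadjusted p of 0.05 in that comparison and 0 were called by DESeq2. The knockout comparison at RT, the cold comparison in each genotype and their difference share libraries and are not independent of each other. A gene model on the same strand, Gm34417, overlaps Tbc1d4.

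The Tbc1d4 promoter window, on the minus strand at chr14:101609142-101609441, is shown because edgeR called this gene lower in KO at RT. That call was lost without some single libraries, as given above. Capitals mark the 2 matches to TTNNGNAA, the first on the strand shown and the second on the other strand, which begin 230 and 166 bases before the start. A match of this form is common, as given above for all windows. It also occurred in the Slc2a5 and Slc2a12 windows, and edgeR called neither gene between genotypes. Control of Tbc1d4 by C/EBP beta through these letters was not tested.
Tbc1d4: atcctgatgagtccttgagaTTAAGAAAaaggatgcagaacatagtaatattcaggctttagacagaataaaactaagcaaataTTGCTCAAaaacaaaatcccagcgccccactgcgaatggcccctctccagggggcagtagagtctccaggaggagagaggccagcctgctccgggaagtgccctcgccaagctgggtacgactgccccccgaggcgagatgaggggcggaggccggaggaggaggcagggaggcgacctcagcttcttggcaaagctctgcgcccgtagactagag

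**Figure D3:**
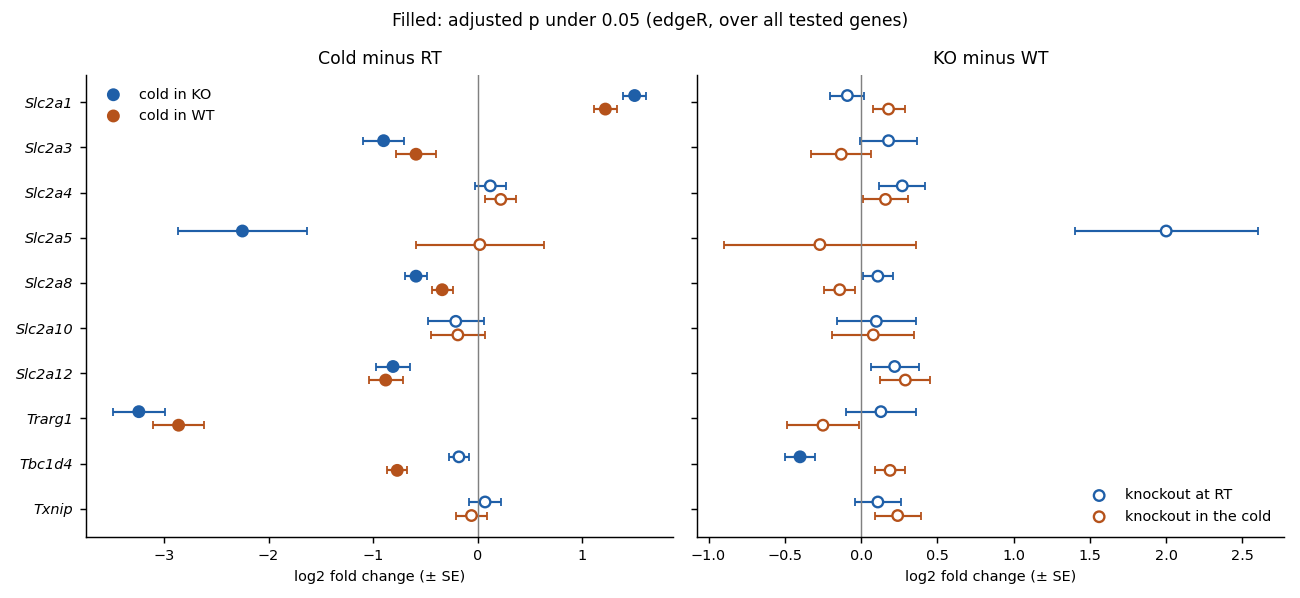
Log2 fold change (points) ± SE (bars) of each of the 10 genes for cold over RT in KO and WT on the left and for KO over WT at RT and in the cold on the right, with filled points for an adjusted p under 0.05 (edgeR). Slc2a1 is filled on the higher side and Trarg1 far on the lower side in both genotypes, Tbc1d4 at RT is the 1 filled point between genotypes, and Slc2a4, Slc2a10 and Txnip are open throughout.

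Txnip was the most abundant of the 10 transcripts and had no called change. KO cold libraries held 907, 668, 679, 768 and 788 CPM, against 986, 745, 661, 701 and 535 CPM in KO RT libraries. WT cold libraries held 716, 730, 609, 539 and 630 CPM, against 559, 899, 650, 710 and 537 CPM in WT RT libraries. The 4 groups overlapped throughout. The log2 fold change with cold was 0.07 ± 0.15 in KO (95% interval -0.25 to 0.39, adjusted p = 0.706, edgeR) and -0.06 in WT (-0.37 to 0.26, adjusted p = 0.77). For KO over WT it was 0.24 in the cold (-0.08 to 0.56, adjusted p = 0.41) and 0.11 at RT (-0.2 to 0.43, adjusted p = 0.828).

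Txnip is a classical target of the glucose-sensing factors ChREBP and MondoA, which bind paired E-box-like sites. Its window, on the plus strand at chr3:96557707-96558006, is shown because it holds such a pair in capitals, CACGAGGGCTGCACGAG, beginning 85 bases before the start. The paired E-box-like motif was searched on both strands after this window had been read, and 0.0487% of all windows, 16 windows of 15 genes, hold it.
Txnip: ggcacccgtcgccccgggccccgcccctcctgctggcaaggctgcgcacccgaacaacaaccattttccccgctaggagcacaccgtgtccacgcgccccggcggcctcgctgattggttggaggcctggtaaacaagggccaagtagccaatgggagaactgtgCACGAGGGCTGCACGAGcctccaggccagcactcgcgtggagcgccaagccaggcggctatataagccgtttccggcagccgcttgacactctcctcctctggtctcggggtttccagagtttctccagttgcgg

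Of the Mondo factors, arrestin relatives and thioredoxins around Txnip, 11 were tested. With cold 3 were called higher and 6 lower in KO, beside 27.5% and 31.7% of all tested genes, and 4 higher and 4 lower in WT, beside 26.2% and 30.2%. Mlxipl, which encodes ChREBP, averaged 47.6 ± 11.9 CPM in KO cold and 125 ± 19.1 CPM in KO RT libraries, and 49 ± 15.6 CPM in WT cold and 104 ± 16.4 CPM in WT RT libraries. It fell by 1.39 on the log2 scale in KO (adjusted p = 7.85e-06, edgeR) and by 1.09 in WT (adjusted p = 0.00011). Txnrd1 and Txn2, of the thioredoxin system that TXNIP binds to, were called higher in both genotypes, by 0.54 and 0.48 in KO and by 0.62 and 0.49 in WT. The other thioredoxin genes of the list did not rise alike. Txn1 averaged 66.9 ± 9.34 CPM in KO cold and 80.7 ± 5.99 CPM in KO RT, and 80.4 ± 14.8 CPM in WT cold and 81.5 ± 8.86 CPM in WT RT libraries. Txnrd2 averaged 38.8 ± 2.02 CPM in KO cold and 43.9 ± 3.17 CPM in KO RT, and 36.9 ± 3.1 CPM in WT cold and 35.8 ± 2.39 CPM in WT RT libraries.

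Arrdc3, a relative of TXNIP, fell with cold in both genotypes, by a log2 fold change of -0.9 in KO (adjusted p = 1.07e-06, edgeR) and -0.41 in WT (adjusted p = 0.00431), and the difference of these responses was not called (-0.49, adjusted p = 0.211). It was lower in KO than in WT in the cold, at 21.9 ± 2.48 CPM against 31.8 ± 2.57 CPM (log2 fold change -0.54, adjusted p = 0.0045). Mlx, the partner of the Mondo factors, was also called lower in KO in the cold (-0.52, adjusted p = 0.0103), a call lost when only the cold libraries entered the fit (adjusted p = 0.068). These were 2 of 11 called lower and 0 higher, beside 4.19% and 3.51% of all tested genes. At RT 1 of the 11, Txnrd2, was called higher in KO (0.3, adjusted p = 0.0138, edgeR), and 0 lower, beside 1.38% and 1.32% of all tested genes.

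The machinery of GLUT4 vesicles was tested for 32 of 33 listed genes. In KO 12 were called higher and 13 lower with cold, where 59.2% of all tested genes were called, and in WT 12 higher and 11 lower, where 56.4% were called. Their cold responses had median log2 fold changes of -0.04 in KO and 0.07 in WT, beside -0.05 over all tested genes. Kif5b, a kinesin heavy chain, averaged 249 ± 9.68 CPM in KO cold and 150 ± 6.69 CPM in KO RT libraries, and 245 ± 19.6 CPM in WT cold and 145 ± 10.6 CPM in WT RT libraries, log2 fold changes of 0.73 in KO and 0.76 in WT (adjusted p = 2.17e-09 and 1.71e-09, edgeR). Cltc, the clathrin heavy chain, rose by 0.57 in KO and 0.46 in WT.

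On the lower side, Tbc1d13, a RAB GTPase-activating protein that limits GLUT4 traffic in cultured adipocytes, averaged 24.8 ± 2.89 CPM in KO cold and 66 ± 8.28 CPM in KO RT libraries, and 30.7 ± 7.99 CPM in WT cold and 67.5 ± 11.4 CPM in WT RT libraries. It fell by 1.41 in KO and by 1.14 in WT on the log2 scale (adjusted p = 2.72e-07 and 3.72e-06, edgeR). Ralgapa2, a subunit of the GTPase-activating complex for RAL, fell by 1.12 in KO and by 1.02 in WT.

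Between genotypes, 2 of the 32 were called lower in KO at RT and 0 higher, beside 1.32% and 1.38% of all tested genes. Myo5a, an actin motor, averaged 73.3 ± 9.25 CPM in KO against 105 ± 10.2 CPM in WT libraries (log2 fold change -0.51, adjusted p = 0.000309, edgeR). Sort1, the sortilin of GLUT4 vesicles, averaged 262 ± 10.1 CPM in KO against 322 ± 20 CPM in WT libraries (-0.3, adjusted p = 0.0148), a call lost without WT RT replicate 5 (adjusted p = 0.0555). In the cold 2 were called higher and 4 lower in KO, beside 3.51% and 4.19% of all tested genes. Myo5a (-0.58) and Sort1 (-0.45) were lower here too, while Lnpep at -0.26, Rab10 at 0.2 and Gga2 at 0.27 each lost their call under at least 1 alternative.

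The insulin and AMPK signal that reaches TBC1D4 was tested for 15 genes. With cold 4 were called higher and 5 lower in KO, and 6 higher and 4 lower in WT, counts near the 59.2% of all tested genes called in KO and the 56.4% in WT. Irs2, an adaptor of the insulin receptor, averaged 434 ± 24.2 CPM in KO cold and 44.8 ± 17.8 CPM in KO RT libraries, and 279 ± 85.6 CPM in WT cold and 46.1 ± 13 CPM in WT RT libraries. Its log2 fold change was 3.28 ± 0.296 in KO and 2.6 ± 0.288 in WT (adjusted p = 5.38e-08 and 6.8e-07, edgeR). Akt2, the kinase that phosphorylates TBC1D4 in fat, averaged 155 ± 6.52 CPM in KO cold and 338 ± 7.2 CPM in KO RT libraries, and 158 ± 17.5 CPM in WT cold and 296 ± 16.7 CPM in WT RT libraries, log2 fold changes of -1.13 and -0.9. Akt1 was called higher in both genotypes (0.5 in KO and 0.24 in WT), with no called difference between these responses (0.26, adjusted p = 0.431), and so was Pdpk1, which phosphorylates both AKT kinases (0.75 in KO and 0.81 in WT).

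Insr, the insulin receptor, was the gene of this list whose response to cold differed by genotype. It averaged 95.4 ± 5.31 CPM in KO cold and 136 ± 14.9 CPM in KO RT libraries, against 167 ± 24.5 CPM in WT cold and 154 ± 11.8 CPM in WT RT libraries. The difference of its responses was -0.63 ± 0.124 (adjusted p = 0.0173, edgeR), 1 of 15 called lower and 0 higher. Of all tested genes, 0.315% were called lower and 0.427% higher in this comparison. In the cold Insr was lower in KO than in WT by a log2 fold change of -0.8 ± 0.088 (adjusted p = 2.71e-06). Irs1 (-0.55), an adaptor of insulin signalling, was also called lower in KO in the cold, a call lost when only the cold libraries entered the fit (adjusted p = 0.083). At RT 0 of the 15 were called between genotypes by edgeR, which called 2.7% of all tested genes. Under an unadjusted p of 0.05 were 1 higher and 4 lower, and DESeq2 called 2 lower.

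Hexokinases trap glucose inside the cell, and 4 of the 5 genes were tested. Hk1 was called higher with cold in both genotypes and higher in KO than in WT at both temperatures. It averaged 58.1 ± 5.3 CPM in KO cold, 39.2 ± 5.7 CPM in KO RT, 41 ± 4.52 CPM in WT cold and 26.3 ± 2.69 CPM in WT RT libraries. The log2 fold changes were 0.57 with cold in KO and 0.64 in WT, and for KO over WT 0.5 in the cold (adjusted p = 0.00136, edgeR) and 0.58 at RT (adjusted p = 0.00102). Hk2, the insulin-responsive isoform, averaged 455 ± 195 CPM in KO cold and 349 ± 74.9 CPM in KO RT libraries, and 471 ± 21.3 CPM in WT cold and 223 ± 23.4 CPM in WT RT libraries. Its cold change was called by edgeR in WT (1.08 ± 0.223, adjusted p = 0.000466) and not in KO (0.38, adjusted p = 0.145). The difference between these responses was not called (-0.7, adjusted p = 0.457). At RT, Hk2 ranged from 284 to 465 CPM in KO and from 197 to 248 CPM in WT libraries, without overlap, as for 4.98% of all tested genes. In that comparison edgeR called 1 of the 4 hexokinases higher, Hk1, beside 1.38% of all tested genes, and DESeq2 called 2.

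Of the factors that bind the Slc2a4 promoter, 11 were tested. With cold 4 were called higher and 6 lower in KO, where 59.2% of all tested genes were called, and 3 higher and 5 lower in WT, where 56.4% were called. Cebpb, the deleted gene, is among the higher calls in both genotypes, at 1.75 in KO, on the 7 to 61 counts left per KO library, and at 0.46 in WT. Srebf1, a lipogenic factor, averaged 16.8 ± 2.73 CPM in KO cold and 138 ± 51.5 CPM in KO RT libraries, and 22.4 ± 8.21 CPM in WT cold and 106 ± 30.1 CPM in WT RT libraries. Its log2 fold change was -3.04 in KO and -2.25 in WT. Cebpa, the relative of the deleted factor that maintains mature fat cells, averaged 103 ± 12.2 CPM in KO cold and 520 ± 35 CPM in KO RT libraries, and 133 ± 74.2 CPM in WT cold and 526 ± 41.2 CPM in WT RT libraries, log2 fold changes of -2.34 and -1.99. Mef2d rose by 0.6 in KO and by 0.46 in WT. In the cold Pparg was called lower in KO (161 ± 11 CPM against 223 ± 24.7 CPM in WT, log2 fold change -0.47, adjusted p = 0.000411, edgeR), with Cebpb the other of 2 lower calls, and Hif1a, called higher at 0.2, lost its call under several alternatives. At RT Cebpb was the 1 call of the 11. Of all tested genes, 2.7% were called between genotypes at RT and 7.7% in the cold.

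**Figure D4:**
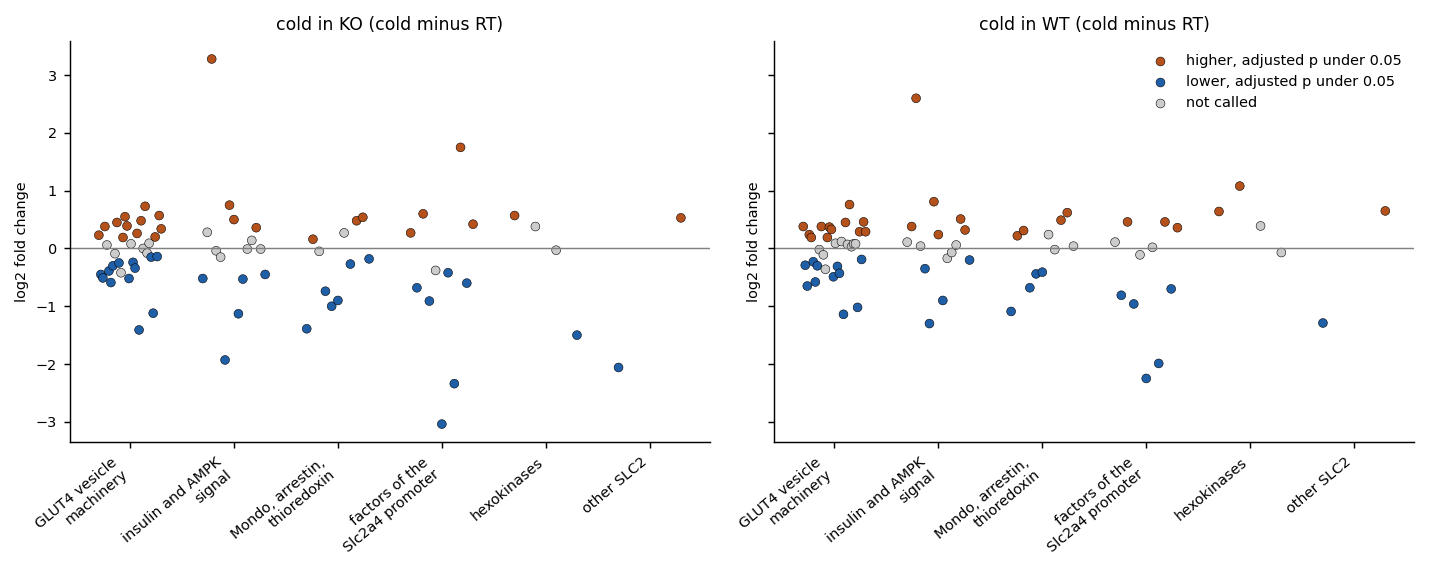
Log2 fold change of cold over RT for each tested gene of 6 gene lists, in KO on the left and in WT on the right, with 1 point per gene, coloured orange where called higher, blue where called lower (adjusted p under 0.05, edgeR) and grey where not called. For the GLUT4 vesicle machinery 12 genes lie on the higher and 13 on the lower side among the calls in KO, and 12 and 11 in WT.

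Of the 5 other SLC2 genes listed, 2 passed the filter. Slc2a9, a urate transporter, averaged 0.542 ± 0.107 CPM in KO cold and 2.29 ± 0.507 CPM in KO RT libraries, and 0.891 ± 0.336 CPM in WT cold and 2.21 ± 0.331 CPM in WT RT libraries, log2 fold changes of -2.06 and -1.29 (adjusted p = 1.81e-07 and 2.9e-05, edgeR). Slc2a13, a proton myo-inositol transporter, rose by 0.53 in KO and 0.65 in WT, calls lost in both genotypes with the muscle markers as a covariate. Slc2a2, Slc2a6 and Slc2a7 did not exceed 0.134 CPM in any library. The sodium-coupled transporters Slc5a1 and Slc5a2 did not exceed 0.0505 CPM in any library and were not tested.

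Of the genes outside the 10, those whose log2 CPM followed a member most closely over the 20 libraries were named among 13241 genes, as a description that temperature groups shape. Slc2a1 was followed by Ing1 (r = 0.982), Ccdc86 (0.973) and Hgs (0.971), with 0.6, 0.515 and 0.428 once group means were removed. Trarg1 was followed by Ctdsp2 (0.989), Vmac (0.984) and P2rx5 (0.983), with 0.775, 0.757 and 0.606 within groups. Slc2a4 was followed by Ldha (0.832), Ptpmt1 (0.827) and Tufm (0.81), with 0.787, 0.9 and 0.843 within groups. Txnip was followed by Acsbg1 (0.724), Nsd2 (0.68) and mt-Co2 (0.669), with 0.676, 0.695 and 0.651 within groups.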

How the data were processed

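Per the labels' protocols, a PureLink kit gave total RNA of brown adipose tissue and a stranded KAPA kit the mRNA libraries. The submitters' processing notes name Trim Galore 0.6.0, STAR 2.7.8a and GRCm38.p6 (mm10), and the annotation release is not given in the sources used here. The authors deposited 1 table of whole-number read counts per library, for both strands together and for each strand. Stranded reads lay on the reverse strand for 94.49% to 95.7%, so that column was used. Left out were entries naming no gene: unmapped (3.86% to 5.66%), multimapping (18.26% to 21.41%), featureless (3.14% to 4.55%) and ambiguous reads (1.02% to 1.16%). GENCODE M21 gave a symbol to 55230 of the 55471 IDs after removal of the version.

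In R 4.3.3, edgeR 4.0.16 fitted 1 robust quasi-likelihood model of the 4 groups to TMM-scaled counts (16 residual degrees of freedom), after filterByExpr with a count minimum of 10 and a total minimum of 15. It gave 5 comparisons: cold in KO, cold in WT, KO over WT in the cold and at RT, and the difference of the cold responses. Benjamini-Hochberg adjustment ran over the 15233 tested genes, and genes under 0.05 were called. CPM used TMM-scaled library sizes, log2 CPM a prior count of 2, and levels between genes are CPM per kb of the union of exons in GENCODE M21. Libraries of a group differed by 15 to 106 times counting error (chi-square per degree of freedom, 40 pairs).

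The members, gene lists and comparisons were chosen with earlier results of these data known. The 10 members are always named. Of each pathway list, up to 3 called genes of largest change per direction and cold comparison could be named, and any called gene of the other comparisons. For 4 members, the 3 genes of highest Pearson correlation are named. Marker lists covered brown adipocytes, skeletal muscle, endothelium, macrophages, neutrophils and platelets, lymphocytes, erythrocytes, and Schwann cells and nerve. Of 6 tested Schwann cell and nerve markers, 1 was called lower with cold in each genotype. Of the 10 brown adipocyte markers, 4 were called higher and 4 lower with cold in KO, and 4 higher and 3 lower in WT. The shares of all tested genes were 27.5% higher and 31.7% lower in KO, and 26.2% and 30.2% in WT.

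Alternatives changed 1 choice each: RLE instead of TMM scaling, no filter, DESeq2 1.42.0 (Wald test), fitting only the compared groups, a replicate block, unstranded counts, the mean log2 CPM of the muscle markers as a covariate, the longest transcript as the length, and leaving out each library in turn. After the data were seen, leaving out WT RT replicate 4 and WT cold replicate 5 together was added. The procedure was tested on simulated data. Protein sequences were not used here, and some called genes of the lists are not reported here.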

Additional observations from a re-analysis of the deposited data

Results flagged for a closer look

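Over 10 genes and 4 groups, 5 of 40 groups held a library far from the other 4, where chance gives about 1 in 20 for independent normal values. The 10 genes come from the same 20 libraries, so the 40 groups are not independent and no excess over chance follows. Slc2a4 was at 410 CPM in WT cold replicate 4, beside 265 to 304 CPM in the other WT cold libraries. Slc2a5 was at 5.51 CPM in WT cold replicate 5, beside 1.31 to 1.78 CPM, and at 5.68 CPM in WT RT replicate 2, beside 1.08 to 2.17 CPM. Slc2a10 was low in WT cold replicate 4, at 0.643 CPM beside 0.941 to 1.01 CPM. Trarg1 was at 42.1 CPM in WT cold replicate 5, beside 19.6 to 24.2 CPM. The cold response of Tbc1d4 differed between KO and WT by 0.59 on the log2 scale (adjusted p = 0.0412, edgeR), and the call was lost without any 1 of 15 of the 20 libraries.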

How the results depend on the processing

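The cold calls of Slc2a1, Slc2a3, Slc2a8, Slc2a12 and Trarg1 in both genotypes and of Tbc1d4 in WT kept their direction and stayed past the threshold under all alternatives run. The Wald test of DESeq2 called 629 genes between genotypes at RT, 1 member higher among them (Slc2a5), against 411 genes and 0 members higher with edgeR, and 269 against 113 genes for the difference of the cold responses. With the muscle markers as a covariate, 0 members were called higher in that difference, and Slc2a10 changed sign in it (0.08) and with cold in KO (0.05). Without WT RT replicate 4 and WT cold replicate 5, 74 genes were called in that difference, and Slc2a5 was -0.75 with cold in WT and 0.35 for KO over WT in the cold. Without the expression filter, 44.4% of the calls in that difference were on the higher side, against 57.5% in the reported fit. With the longest transcript as the length, WT RT levels were 1.82 CPM per kb for Slc2a1, 0.37 for Slc2a3 and 11 for Tbc1d4. The cause of these shifts was not tested.

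With each library left out in turn, KO over WT at RT gave 267 (without WT RT replicate 5) to 530 genes, 0 to 1 members higher and 0 to 1 members lower, with 269 genes without KO RT replicate 4, and the difference of the cold responses 0 to 1 members higher. Values without a call that changed sign ranged as follows. With cold in WT, Slc2a5 ranged from -0.57 to 0.71 and Txnip from -0.12 to 0.07. For KO over WT at RT, Slc2a10 ranged from -0.03 to 0.27 and Txnip from -0.02 to 0.24. For KO over WT in the cold, Slc2a5 ranged from -0.45 to 0.35 and Slc2a10 from -0.12 to 0.2. In the difference of the cold responses, Slc2a4 ranged from -0.19 to 0.02, Slc2a10 from -0.22 to 0.11, Slc2a12 from -0.05 to 0.14 and Txnip from 0 to 0.26.

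Replicate numbers were not treated as pairs in the reported fit. Same-numbered libraries of different groups had deviations correlated at -0.184 to 0.274, with 7 of 30 pairs over 0.1. Differently numbered libraries were not compared, so these values do not settle whether the numbers pair the libraries. With the replicate block, 8958 genes were called with cold in KO, 8491 in WT, 1078 between genotypes in the cold, 383 at RT and 94 in the difference of the cold responses, and no call of a member changed. Slc2a3, Slc2a5 and Slc2a10 had the lowest counts, which limits the precision of their values.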
